A study of Mus musculus with 4 samples.

Results

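Genes of the proteasome and of the ubiquitin pathway were examined in male mice at 12 months of age, in RNA of the left hippocampus. Of the 8251 genes that the platform annotation pairs with a probe set of a single gene symbol, 92 were chosen by name. They comprise 40 proteasome genes (symbols starting with Psma, Psmb, Psmc, Psmd or Psme, without Psmb8 and Psmb9) and 52 ubiquitin enzyme genes (Ube, Usp followed by a digit, or Uch), measured by 51 and 72 probe sets. On these arrays a transcript is read by a set of short probes, called a probe set. The name rule also took in Psmc3ip and Psme3ip1, which are named for proteins that interact with a proteasome component and are not subunits. Not every Psmd gene encodes a subunit either: Psmd9, for one, is an assembly chaperone.

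The 4 Affymetrix arrays were 2 from APPSw mice and 2 from controls. APPSw is the labels' name for Tg2576, a mouse line that overexpresses amyloid precursor protein carrying the Swedish mutation, and the controls were nontransgenic mice (C57B6/SJL). The labels give each array as the RNA of a mouse without stating whether each was a separate animal or whether they shared litters. The p-values therefore measure the spread between these arrays, which may be partly technical. All values come from whole left hippocampus, in which fewer cells of a type and less RNA per cell cannot be told apart.

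The proteasome is the barrel-shaped protease that degrades proteins tagged with ubiquitin. Its 20S core is a stack of rings of alpha subunits (Psma) and beta subunits (Psmb), the cutting sites lying in some beta subunits, and the 19S particle adds a ring of ATPases (Psmc) that unfold the substrate and further subunits (Psmd) that bind and trim ubiquitin chains. Ubiquitin is attached by activating (E1), conjugating (E2) and ligating (E3) enzymes and removed by deubiquitinating proteases of the Usp and Uch families. In brain the pathway clears misfolded proteins and adjusts synaptic proteins, and ubiquitin is found in the protein deposits of neurodegenerative disease.

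The median signal per array was 1033 and 1013 in APPSw mice and 926 and 988 in controls, in the authors' units scaled to a target of 2500. Of 15 marker genes of hippocampal neurons, 15 were on the array and 14 passed the filter on dim signals. Arrays differed in markers of other tissue: the summed signal of 10 choroid plexus markers was 145087 in APPSw 1 and 20614 in APPSw 2, against 27087 and 17432 in controls 1 and 2. For 8 markers of meninges and fibroblasts the summed signal was 28808 and 25754 in APPSw mice, against 17729 and 22902 in controls. Of the 6 kept ones, 5 were higher in both APPSw arrays than in both controls, as were 22.2% of all kept probe sets. None of the marker genes of 8 lists was listed at a signal of 0, but neither was any other probe set. The lowest signals were 2.4 and 2.6 in APPSw 1 and 2, and 1.4 and 0.8 in controls 1 and 2.

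Probe sets with a geometric mean signal under 565, the 40th percentile, were left out of the test, which kept 100 of the 123 member probe sets and 80 of the 92 genes. Kept were 43 proteasome probe sets (37 genes) and 57 ubiquitin enzyme probe sets (43 genes). By limma with Benjamini-Hochberg adjustment over all 7453 kept probe sets, 0 of the 100 member probe sets passed an adjusted p of 0.05, as did 0 of all 7453 (0%). The lowest adjusted p was 0.612 among proteasome and 0.599 among ubiquitin enzyme probe sets. No gene is therefore described as having risen or fallen between the groups, and the values below are levels and differences that did not pass the test. At an unadjusted p under 0.05 there were 0 proteasome probe sets and 6 ubiquitin enzyme probe sets, 3 higher and 3 lower in APPSw mice, against 8.05% of all kept probe sets, 4.72% higher and 3.33% lower. After quantile normalization that split over all probe sets was 274 higher and 310 lower, against 352 and 248 without it. Differences in log2 are APPSw minus control throughout.

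The proteasome genes had a median log2 difference of 0.10 over 37 genes, with 22 above 0 and 15 below, and ranged from -0.44 to 0.51. Over all 5670 kept genes the median was 0.0088. The alpha subunits of the core had the highest median of the proteasome families, 0.20 over 7 genes. The ATPases followed with 0.15 over 5, the beta subunits with 0.081 over 8 and the Psmd genes with 0.064 over 13. The 4 Psme genes had a median of -0.052. Both APPSw arrays lay above both controls for 10 of 43 proteasome probe sets (23.3%) and below both for 1 (2.33%). Over all kept probe sets the groups did not overlap for 41.2%, 22.2% higher and 19.0% lower, so the proteasome share on the higher side was near the background. Groups lay at least 1.5-fold apart for 0 of the kept members, against 0.859% of all kept probe sets higher and 0.362% lower.

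**Figure D1:**
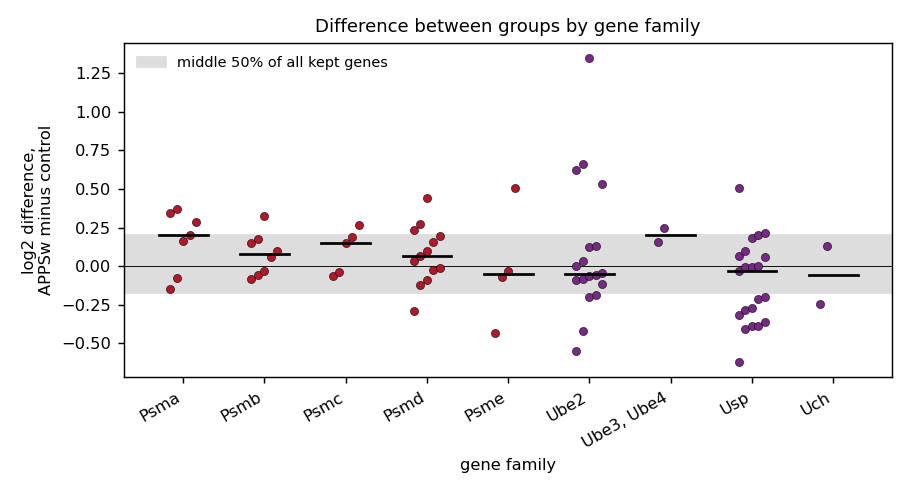
Log2 difference between APPSw and control arrays (vertical axis) for each kept gene of each family (points), with the family's median as a black bar. The grey band holds the middle part of all 5670 kept genes, from -0.17 to 0.20. Proteasome families stand on the left, ubiquitin enzymes on the right, and the widest spread is among the Ube2 genes, where Ube2c reached 1.35.

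The proteasome genes moved together between arrays of the same group. APPSw 2 was above APPSw 1 for 30 of 37 genes (81.1%), by a median of 0.25, and control 1 was above control 2 for 30 of 37, by a median of 0.21. Over all kept genes these shares were 49.8% and 50.4%. Both orders held together for 26 of the 37 genes (70.3%), against 27.6% of all genes. Relative to each gene's mean over the 4 arrays, the median proteasome level was -0.053 in APPSw 1 and 0.17 in APPSw 2, against 0.043 in control 1 and -0.16 in control 2. The groups thus overlapped, and the distance between arrays of a group was larger than the median difference of 0.10 between groups. These are descriptions of 4 arrays, with no test. APPSw 2 was the highest array for 24 of the 37 genes, and control 2 the lowest for 20.

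The order APPSw 2, control 1, APPSw 1, control 2 was the same in the 20S core and in the Psmc and Psmd genes. The 15 core genes had medians of -0.069 and 0.17 in APPSw 1 and 2 and 0.064 and -0.16 in controls 1 and 2. The 18 kept Psmc and Psmd genes, the assembly chaperone Psmd9 among them, had -0.045 and 0.20 in APPSw 1 and 2. In controls 1 and 2 they had 0.031 and -0.16. Genes of the respiratory chain and ATP synthase, a group chosen after the proteasome pattern was seen, had -0.017 and 0.16 in APPSw 1 and 2, and 0.015 and -0.14 in controls 1 and 2, over 61 genes. For 23 ribosomal protein genes, chosen in the same way, the medians were -0.015 and 0.084 in APPSw 1 and 2 and 0.022 and -0.064 in controls 1 and 2. These gene groups ran in the same order over the arrays as the proteasome did. The 1103 genes with a mean signal between the proteasome genes' quartiles (4490.1 and 10952) had medians of -0.0068 and -0.0049 in APPSw 1 and 2 and 0.024 and -0.010 in controls 1 and 2. Of 2 erythrocyte markers, Hba-a1 had 11324 in APPSw 1 and 19525 in APPSw 2, against 8678 and 10811 in controls 1 and 2. It was also highest in APPSw 2 but lowest in control 1. The other, Alas2, which lay under the filter, had 342.6 in APPSw 1 and 167.2 in APPSw 2, against 129.5 and 244.5 in controls 1 and 2, and was highest in APPSw 1. The part that blood content had in the order of the arrays was not tested.

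**Figure D2:**
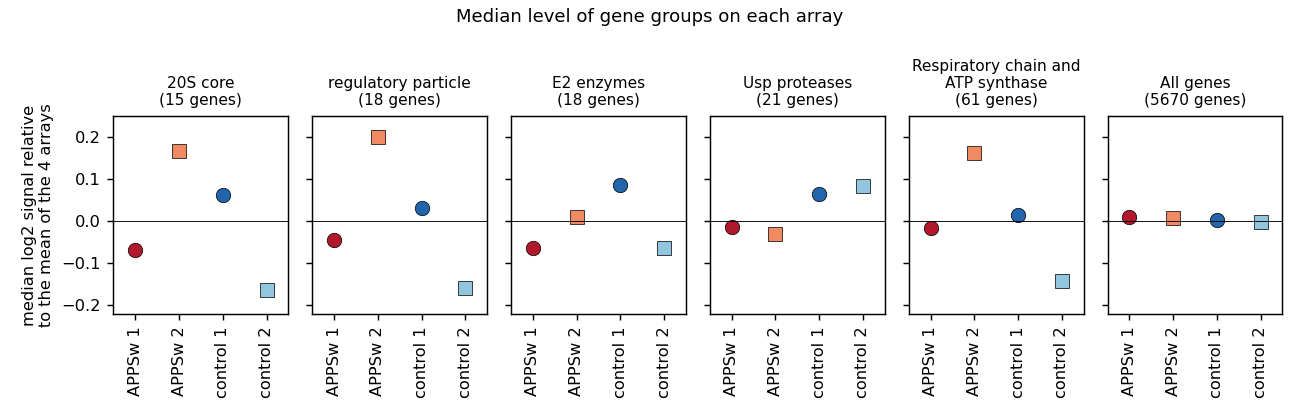
Median log2 signal of 6 gene groups on each array (vertical axis), relative to each gene's own mean over the 4 arrays, with APPSw arrays left of the controls. The 20S core, the Psmc and Psmd genes (headed regulatory particle) and the respiratory chain were highest in APPSw 2 and lowest in control 2. In control 2 both proteasome parts lay at -0.16, while the medians of all genes ran from -0.0010 to 0.010.

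Leaving out an array moved the proteasome median. It was 0.18 without control 1, with 29 of 37 genes above 0, and 0.15 without APPSw 1, also with 29 above 0. It was 0.024 without APPSw 2 and -0.00098 without control 2, where 18 of 37 genes lay above 0.

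**Figure D3:**
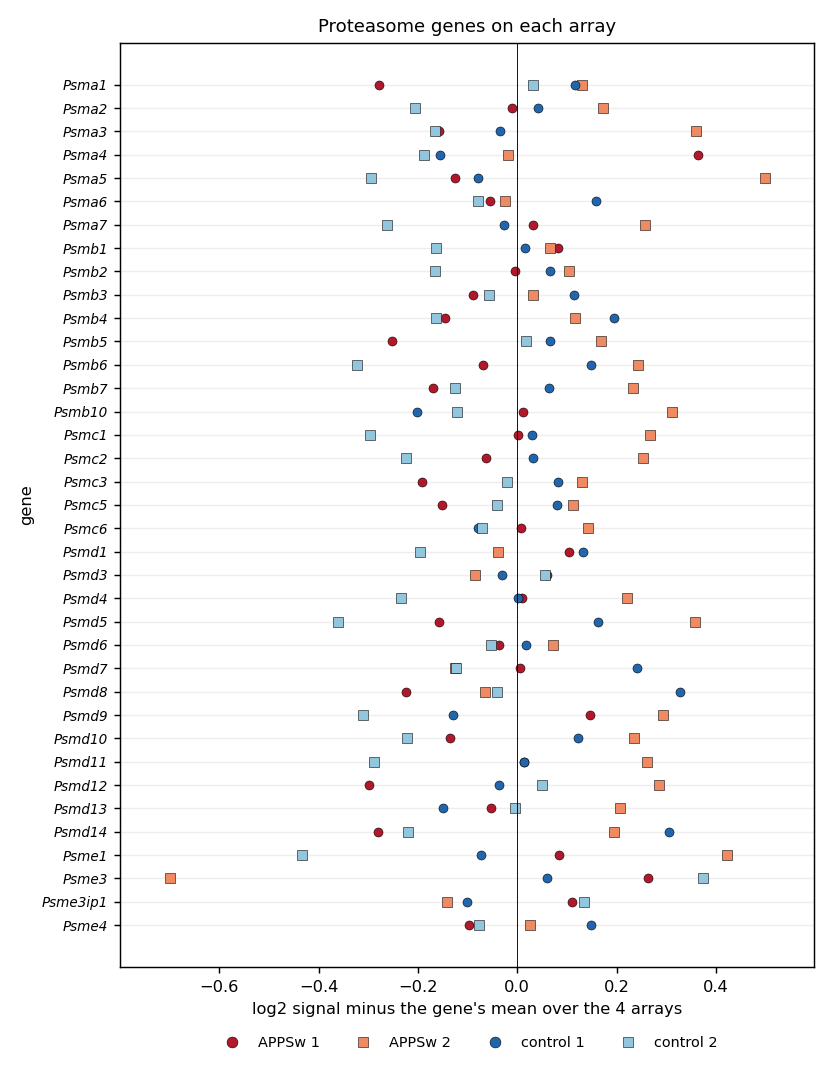
Log2 signal of the 37 kept proteasome genes on each array (horizontal axis), minus the gene's mean over the 4 arrays, APPSw in red tones and control in blue tones. For 24 genes the point farthest to the right is APPSw 2, and for 20 the point farthest to the left is control 2. Psme3 runs the other way, with APPSw 2 the lowest.

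Among the alpha subunits, Psma5 had signals of 6414 and 9882 in APPSw mice, against 6618 and 5706 in controls, a log2 difference of 0.37 (SE 0.26, adjusted p = 0.686). APPSw 2 alone stood above the other arrays. Psma4 had 14885 and 11416 in APPSw mice, against 10375 and 10145 in controls, a difference of 0.35 (SE 0.20, adjusted p = 0.644), and the groups did not overlap. Psma7 had 7119 and 8328 in APPSw mice, against 6838 and 5804 in controls, a difference of 0.29 (SE 0.19), also without overlap. Psma1 was the alpha subunit with the lowest difference, -0.15 (SE 0.21), with 1572 and 2088 in APPSw mice and 2067 and 1950.2 in controls. Only APPSw 1 was low for it, and without that array the difference was 0.056.

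The cutting sites of the standard core are in Psmb5, Psmb6 and Psmb7. The brighter Psmb5 probe set had 9200.3 and 12305 in APPSw mice, against 11461 and 11089.6 in controls, a difference of -0.083 (SE 0.21, adjusted p = 0.920). The other had 1607 and 1577 in APPSw mice, against 1558 and 1483 in controls, a difference of 0.067. The sign thus rested on the probe set. Psmb6 had 6981 and 8668 in APPSw mice and 8113 and 5853 in controls, a difference of 0.17 (SE 0.24). Psmb7 had 7276 and 9629 in APPSw mice and 8559 and 7504 in controls, a difference of 0.063 (SE 0.21). The groups overlapped for all 3 genes by their brighter probe sets. Psmb1 is a beta subunit without a cutting site. Its brightest probe set had 22486 and 22228 in APPSw mice, against 21484 and 18966 in controls, a difference of 0.15 (SE 0.17), and another differed by -0.15 (SE 0.24). Psmb4, also a structural subunit, had 12970 and 15549 in APPSw mice and 16421 and 12812 in controls, a difference of -0.031 (SE 0.21). Its dimmer probe sets, both under the filter, differed by 0.22 and -1.40.

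Psmb10 replaces Psmb7 in the immunoproteasome, the form that cells make under interferon to prepare peptides for antigen presentation. It had 6102 and 7513 in APPSw mice, against 5260.0 and 5560.2 in controls, a difference of 0.32 (SE 0.19, adjusted p = 0.646), and the groups did not overlap. Psme1 encodes a subunit of the interferon-induced activator that caps the core. It had 3590.1 and 4534 in APPSw mice, against 3220 and 2506 in controls, a difference of 0.51 (SE 0.22, adjusted p = 0.612), the largest of the kept proteasome genes. Its probe set under the filter had 294.8 and 157.2 in APPSw mice and 98.6 and 113.0 in controls. Both Psme1 probe sets were higher in both APPSw arrays than in both controls. The other immunoproteasome subunits, which the name rule left out, had their values in the same direction. Psmb8 differed by 0.93 (SE 0.31, adjusted p = 0.600). Psmb9, under the filter, had 223.7 and 995.9 in APPSw mice, against 124.3 and 68.5 in controls. For Psmb8, Psmb9, Psmb10 and the kept Psme1 probe set the highest array was APPSw 2. Among the 9 microglial markers, the summed signal was 39674 and 44087 in APPSw mice, against 46479 and 40725 in controls. Of the 8 that passed the filter, 3 lay higher and 2 lower in both APPSw arrays than in both controls. Over all kept probe sets 22.2% lay higher and 19.0% lower in this way. The summed signal of the meninges and fibroblast markers given above was also higher in both APPSw arrays than in both controls. That sum was highest in APPSw 1 (28808, against 25754 in APPSw 2). Of its kept markers, Col1a2, Slc6a13, Lum and Mgp were highest in APPSw 1, and Dcn and Col1a1 in APPSw 2. The part of either tissue component in the immunoproteasome values was not tested.

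Psme3 and Psme4 encode other activators of the core. Psme3 had 6029 and 3091 in APPSw mice, against 5235 and 6507 in controls, a difference of -0.44 (SE 0.34, adjusted p = 0.724). APPSw 2 alone was low, and without it the difference was 0.047. Psme4 had 1491 and 1624 in APPSw mice and 1766 and 1512 in controls, a difference of -0.071 (SE 0.18).

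Of the ATPases, Psmc1 had 6782 and 8148 in APPSw mice and 6912 and 5511 in controls, a difference of 0.27 (SE 0.21, adjusted p = 0.722). Psmc2 had 8621 and 10735 in APPSw mice and 9205 and 7713 in controls, a difference of 0.19 (SE 0.20). Psmc6 had 14612 and 16048 in APPSw mice, against 13763 and 13848 in controls, a difference of 0.15 (SE 0.17), without overlap. By their brightest probe sets, APPSw 2 was the highest array for all 5 kept ATPase genes. The 3 kept probe sets of Psmc3 differed by -0.060, -0.025 and -0.063, and the kept one of Psmc5 by -0.039. Psmc4 lay under the filter, with 700.2 and 573.4 in APPSw mice, against 425.1 and 51.7 in controls.

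Among the Psmd genes, Psmd9, a chaperone in the assembly of the ATPase ring, had 3328 and 3685 in APPSw mice, against 2746 and 2423 in controls. The difference was 0.44 (SE 0.18, adjusted p = 0.612) and the groups did not overlap. The brightest Psmd11 probe set, for a subunit of the 19S lid, had 18831 and 22371 in APPSw mice and 18826 and 15282 in controls, a difference of 0.28 (SE 0.20). Its other probe sets differed by 0.31 and -0.17. Psmd4, a ubiquitin receptor of the 19S particle named here for its promoter, had 9455.5 and 10953 in APPSw mice and 9405 and 7987.5 in controls, a difference of 0.23 (SE 0.19). For Psmd11 and Psmd4 the lower APPSw array lay just above the higher control. Psmd1, a scaffold subunit of the base, had 11014 and 9976 in APPSw mice and 11241 and 8950.2 in controls, a difference of 0.064 (SE 0.20), whose sign turned without control 2 or without APPSw 1. Psmd8, a lid subunit, was the only kept proteasome gene with both APPSw arrays under both controls, at 3022 and 3372 in APPSw mice and 4430.5 and 3432 in controls, a difference of -0.29 (SE 0.20).

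Psmd2, the other scaffold subunit of the base, gave the widest gap of all members, by a probe set under the filter. It had 553.4 and 949.5 in APPSw mice, against 70.2 and 91.5 in controls, a log2 difference of 3.18. With no filter the SE was 0.37 and the adjusted p 0.466, so it did not pass there either. Both controls lay far under the filter's 565, and with a floor of 250 the difference was 1.54. Among the kept Psmc and Psmd genes the differences ran from -0.29 to 0.44. Present and absent calls were not used here.

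The promoters of Psma to Psmd genes were examined because these genes varied together over the arrays. RefSeq promoter windows (GRCm38.p6, 250 bases before to 50 after the gene start) were matched for 72 of the 92 genes. Of the 35 Psma to Psmd genes without Psmc3ip, 29 were matched, as 31 windows. These 35 are called subunit genes below, although they include the assembly chaperone Psmd9. The letters CGGAAG, a core of sites for ETS-family transcription factors, occurred on either strand in 18 of 31 windows (58.1%), against 16.9% of all 32851 windows and 34.1% of 44 windows of ubiquitin enzymes. CCAAT occurred in 35.5% of subunit windows and 37.4% of all. TGACNNNGC, a core of the antioxidant response element through which Nfe2l1 is known to drive proteasome genes, occurred in 16.1% and 12.4%. In ubiquitin enzyme windows TGACNNNGC occurred in 20.45% and CCAAT in 25%. The motifs, searched on both strands, were chosen after matches had been seen. Subunit genes with CGGAAG had a median log2 difference of 0.064 over 15 genes and those without it 0.19 over 12. The windows that hold CGGAAG among subunit genes with both APPSw arrays above both controls are those of Psma4, Psmc6, Psmd4 and Psmd11. They are shown here, 5′ to 3′ on the gene's strand, with CGGAAG, or CTTCCG where it lies on the opposite strand, in capitals.
Psma4 promoter, chr9:54950609-54950908, plus strand: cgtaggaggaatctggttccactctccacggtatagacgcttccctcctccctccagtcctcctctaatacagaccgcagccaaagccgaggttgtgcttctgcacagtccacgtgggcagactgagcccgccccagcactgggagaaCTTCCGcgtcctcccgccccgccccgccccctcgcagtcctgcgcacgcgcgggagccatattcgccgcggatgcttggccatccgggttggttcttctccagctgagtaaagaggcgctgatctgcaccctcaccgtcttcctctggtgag
Psmc6 promoter, chr14:45329574-45329873, plus strand: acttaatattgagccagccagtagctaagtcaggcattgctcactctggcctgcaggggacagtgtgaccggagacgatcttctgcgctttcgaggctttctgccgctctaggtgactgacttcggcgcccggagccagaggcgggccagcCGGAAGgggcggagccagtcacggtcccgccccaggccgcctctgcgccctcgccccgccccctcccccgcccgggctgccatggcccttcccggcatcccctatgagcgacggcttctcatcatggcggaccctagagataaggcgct
Psmd4 promoter, chr3:95042565-95042864, minus strand: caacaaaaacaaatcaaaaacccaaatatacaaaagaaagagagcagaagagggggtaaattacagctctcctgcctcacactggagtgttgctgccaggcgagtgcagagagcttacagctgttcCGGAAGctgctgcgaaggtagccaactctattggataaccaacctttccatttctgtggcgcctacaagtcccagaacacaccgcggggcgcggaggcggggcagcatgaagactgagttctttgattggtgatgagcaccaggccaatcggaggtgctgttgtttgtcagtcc
Psmd11 promoter, chr11:80428365-80428664, plus strand: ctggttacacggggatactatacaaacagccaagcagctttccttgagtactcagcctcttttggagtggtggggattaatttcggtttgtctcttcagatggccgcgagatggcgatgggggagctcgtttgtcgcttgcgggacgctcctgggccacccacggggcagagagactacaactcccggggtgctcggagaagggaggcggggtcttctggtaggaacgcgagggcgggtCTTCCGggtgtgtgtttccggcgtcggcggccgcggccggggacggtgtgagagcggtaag
The first base of the motif lay at position -102 from the gene start in Psma4, -99 in Psmc6, -124 in Psmd4 and -11 in Psmd11. Of these genes, Psmc6 also held TGACNNNGC and Psmd4 also held CCAAT. A match describes these letters only.

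Among the ubiquitin enzymes, the median log2 difference was -0.029 over 43 genes, with 18 above 0 and 25 below, and the range was from -0.62 to 1.35. It was -0.072 without control 2 and -0.086 without APPSw 2. Both APPSw arrays lay above both controls for 7 of 57 probe sets (12.3%) and below both for 12 (21.1%), against 22.2% and 19.0% of all kept probe sets. Over these genes together, APPSw 2 was above APPSw 1 for 23 of 43 and control 1 above control 2 for 22 of 43. By family, control 1 was above control 2 for 13 of 18 Ube2 genes (72.2%) and for 8 of 21 Usp genes (38.1%). Both orders seen in the proteasome held together for 44.4% of the Ube2 genes and 14.3% of the Usp genes, against 27.6% of all genes, with no test of the difference.

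**Figure D4:**
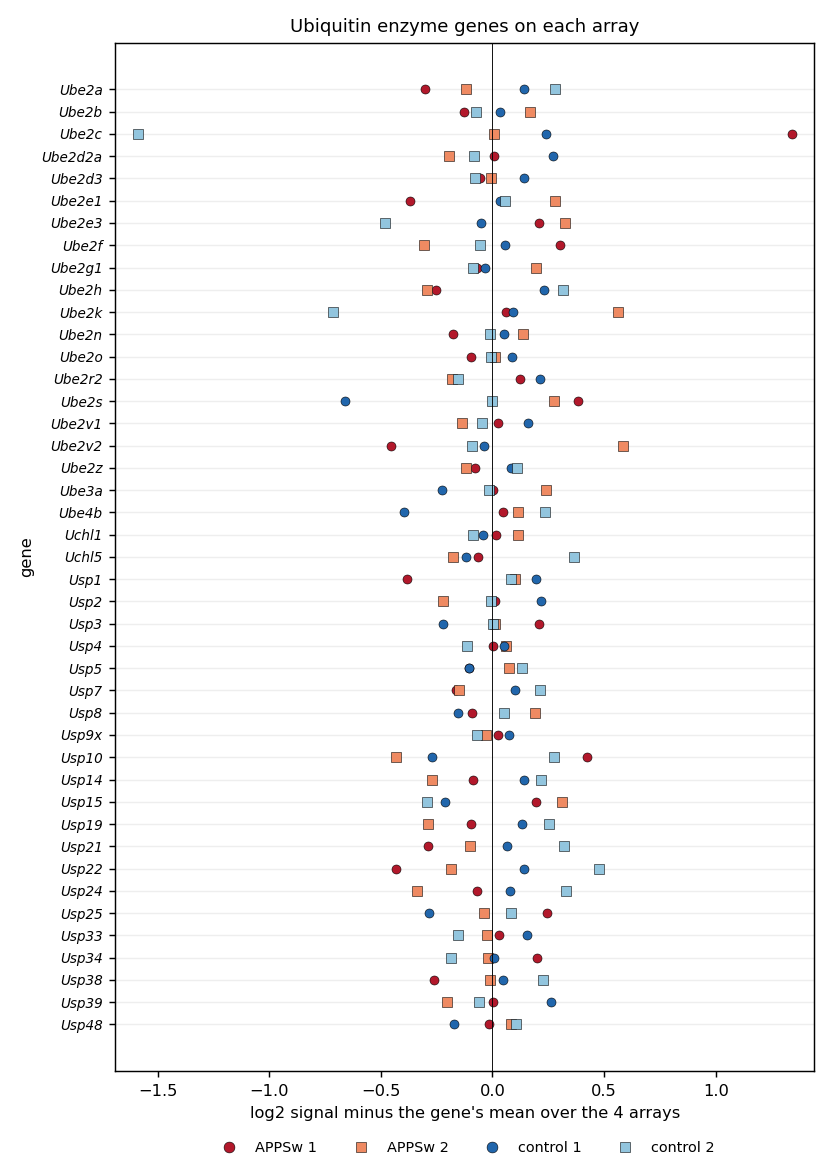
Log2 signal of the 43 kept ubiquitin enzyme genes on each array (horizontal axis), minus the gene's mean over the 4 arrays, APPSw in red tones and control in blue tones. The order of the arrays changes from gene to gene, and Ube2c has the widest spread, with APPSw 1 highest and control 2 lowest.

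The E2 enzymes carry activated ubiquitin and hand it to the substrate or the ligase. The 18 kept genes with a Ube2 symbol, chosen by name and not by activity, had a median difference of -0.050. Ube2s, which extends ubiquitin chains for the anaphase-promoting complex, had 2219 and 2061 in APPSw mice, against 1076 and 1698 in controls, a difference of 0.66 (SE 0.26, adjusted p = 0.612). Ube2e3 had 904.8 and 980.0 in APPSw mice, against 755.9 and 561.1 in controls, a difference of 0.53 (SE 0.21, adjusted p = 0.612). The groups did not overlap for either gene. The brighter Ube2h probe set had 3884.5 and 3775 in APPSw mice, against 5438 and 5762 in controls, a difference of -0.55 (SE 0.17, adjusted p = 0.599). Its other probe set had 3549.8 and 3762 in APPSw mice and 3102 and 3549.6 in controls, a difference of 0.14 (SE 0.18). The Ube2h probe sets therefore gave opposite signs. The groups overlapped for neither, but by the second the lower APPSw array (3549.8) lay barely above the higher control (3549.6). Ube2n, the E2 for chains linked through lysine 63 that serve in signalling, had 9750.4 and 12106 in APPSw mice and 11423 and 10955 in controls, a difference of -0.042 (SE 0.19). Ube2c, a mitotic E2 named here after its values were seen, had 1648.5, 653.3, 768.3 and 216.0 in APPSw 1, APPSw 2, control 1 and control 2, a difference of 1.35 (SE 0.69, adjusted p = 0.620). Its groups overlapped.

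The ligases on the list are Ube3a, whose loss on the maternal chromosome causes Angelman syndrome in humans, and Ube4b, which lengthens ubiquitin chains. Ube3a had 1075.5 and 1268 in APPSw mice, against 915.8 and 1059.6 in controls, a difference of 0.25 (SE 0.19, adjusted p = 0.722). The groups lay apart by a factor of 1.02. Ube4b had 6478 and 6783 in APPSw mice and 4769 and 7381 in controls, a difference of 0.16 (SE 0.25), with the APPSw arrays between the controls.

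Uchl1, a deubiquitinating protease abundant in neurons, had 35250.1 and 37693 in APPSw mice, against 33908 and 32825 in controls. The difference of 0.13 (SE 0.17, adjusted p = 0.839) was smaller than its SE, although the groups did not overlap. Uchl5, which works at the 19S particle, had 1291 and 1196 in APPSw mice and 1244 and 1742 in controls, a difference of -0.24 (SE 0.22), and control 2 alone stood high.

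The Usp family, the largest group of deubiquitinating proteases, had a median difference of -0.029 over 21 genes, 8 above 0 and 13 below. Of its 29 kept probe sets, both APPSw arrays lay below both controls for 9 (31.0%) and above both for 2 (6.90%), against 19.0% and 22.2% of all kept probe sets. The 9 were 1 probe set each of Usp7, Usp9x, Usp14, Usp19, Usp21, Usp22, Usp24, Usp34 and Usp38, listed because they make up the count. They do not all stand for their genes. The listed Usp34 probe set differed by -0.24, but the brighter one by 0.18. Dimmer kept probe sets of Usp7 and Usp19 differed by 0.21 and -0.0059, and the other Usp9x probe set is given below. Markers of hippocampal neurons lay in the same direction as those 9 probe sets. Of 14 kept genes, 8 were lower in both APPSw arrays than in both controls and 1 was higher. The summed signal of the 15 neuronal markers was 197036 and 189896 in APPSw mice, against 203959 and 215399 in controls. Oligodendrocyte markers lay in this direction too, with 4 of 7 kept genes lower in both APPSw arrays and 0 higher, and a summed signal of 94499 and 78271 in APPSw mice, against 96856 and 102701 in controls. The part of neuronal or oligodendrocyte content in the Usp values was not tested.

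Usp22, the deubiquitinase of the SAGA coactivator complex, had 4026 and 4774 in APPSw mice, against 5996 and 7579 in controls, a difference of -0.62 (SE 0.21, adjusted p = 0.600). Usp14, which trims ubiquitin chains on the proteasome, had 2836 and 2494 in APPSw mice, against 3324 and 3508 in controls, a difference of -0.36 (SE 0.18, adjusted p = 0.616). Its probe set under the filter had 350.9 and 296.4 in APPSw mice, against 48.8 and 165.7 in controls, so the Usp14 probe sets pointed in opposite directions. The dimmer kept Usp9x probe set had 1042 and 1185 in APPSw mice, against 1600.2 and 1615.0 in controls, a difference of -0.53 (SE 0.17, adjusted p = 0.599). The brighter one had 10728 and 10317 in APPSw mice and 11096 and 10041 in controls, a difference of -0.0048 (SE 0.17). For Usp9x, an X-linked deubiquitinase, only the dimmer probe set thus had groups that did not overlap. Usp15 was higher in both APPSw arrays by its brighter probe set, with 2029.9 and 2201 in APPSw mice and 1528 and 1445.0 in controls, a difference of 0.51 (SE 0.17, adjusted p = 0.603), and 0.12 (SE 0.19) by the other. Usp38 differed by -0.27 (SE 0.19) by its kept probe set. Its probe set under the filter had 343.7 and 378.6 in APPSw mice, against 580.1 and 932.9 in controls, lower in both APPSw arrays as well.

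Probe sets of the same gene did not always have the same sign. The share with both signs among all genes of the array was not counted, so the number below is a description only. Of the 17 member genes with several kept probe sets, 10 had differences of both signs, and the median distance between a gene's highest and lowest difference was 0.38. The largest was 0.69, for Ube2h. Over the 100 kept member probe sets the median size of the difference itself, without its sign, was 0.15.

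**Figure D5:**
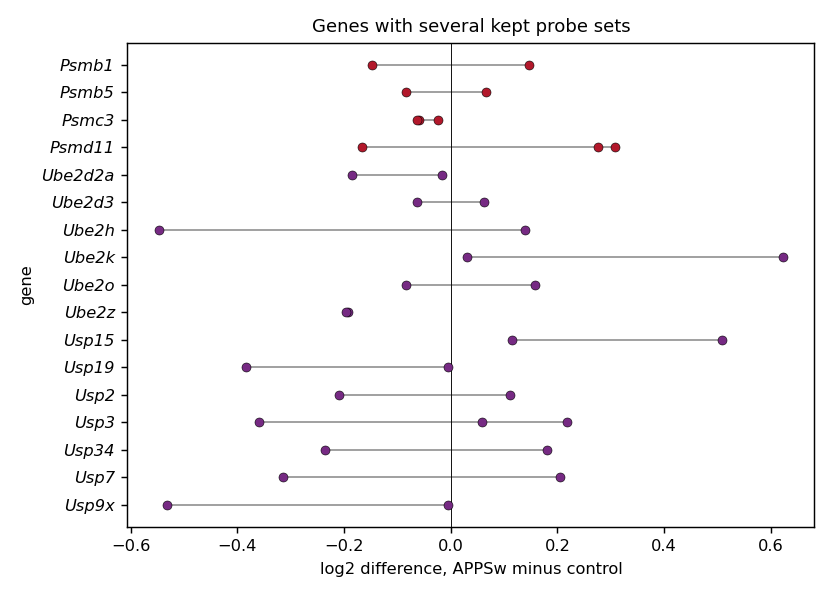
Log2 difference between APPSw and control arrays (horizontal axis) for each kept probe set (points) of the 17 member genes with several, joined by a line within a gene. For 10 genes the line crosses 0. The lines are longest for Ube2h and Ube2k.

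Of 122 other genes of the pathway that were listed by symbol (ubiquitin itself, E1 enzymes, ligases, chaperones and shuttles), 78 were on the array and 75 passed the filter. Their median log2 difference was -0.0033, with 36 above 0 and 39 below, and 0 of 100 probe sets passed the adjusted threshold by limma. At an unadjusted p under 0.05, 5 were higher and 2 lower in APPSw mice, against 4.72% and 3.33% of all kept probe sets. The groups did not overlap for 19 higher and 24 lower, against 22.2% and 19.0% of all kept probe sets, so these counts were near the background. Psmg3, an assembly chaperone of the proteasome core, had 2077 and 2655 in APPSw mice, against 956.3 and 1354 in controls, a difference of 1.05 (SE 0.25, adjusted p = 0.599). Its other probe set had 2990.1 and 3507 in APPSw mice, against 1954 and 1960.0 in controls, a difference of 0.73 (SE 0.18, adjusted p = 0.599). By both, each APPSw array was more than 1.5-fold above each control, which held for 0.859% of all kept probe sets. The assembly chaperones Psmg1, Psmg2 and Pomp differed by 0.44 (SE 0.21), 0.20 (SE 0.33) and 0.21 (SE 0.20). Uba7, the E1 enzyme of the ubiquitin-like protein Isg15, differed by 0.52 (SE 0.18, adjusted p = 0.609). The shuttle Ubqln1, which carries ubiquitinated proteins to the proteasome, differed by -0.37 (SE 0.17) and -0.28 (SE 0.21) by its probe sets. For the unfoldase Vcp the brightest of the probe sets gave -0.042 (SE 0.18). Nfe2l1 differed by -0.0012 (SE 0.17) and -0.21 (SE 0.20). These genes of the list were named after their values were seen.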

How the data were processed

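Signals of 12488 probe sets on 4 Affymetrix arrays, 2 APPSw and 2 control, were used. Per the labels, the authors computed linear intensity values with MAS 5.0 and scaled each array to 2500. From the deposited intensities, 66 manufacturer's controls were left out. Of the other 12422 probe sets, the platform annotation pairs 10833 with 1 gene symbol, 396 with several and 1193 with none. All 92 members had their Entrez number in the RefSeq table of GRCm38.p6, and 0 symbols were replaced.

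The groups were compared on log2 signals by two-sided tests in limma 3.58.1 (R 4.3.3; functions lmFit and eBayes) over the 7453 probe sets with a mean log2 signal at or above the 40th percentile. The fit had 2 residual and 3.70 prior degrees of freedom and was tested on simulated data. Those data were drawn independently from the fit's own variance model, so they do not cover genes that vary together over the arrays. The number of arrays limits the precision. For medians over genes, the brightest kept probe set stood for a gene. Genes named are a fixed set (Uchl3 and Psme2 have no probe set with a single symbol), the 3 with the largest moderated statistic per family, those with groups at least 1.5-fold apart, and the 4 with the widest spread between probe sets. The members, lists and rule were chosen with earlier results of these data known. Other settings tried were each array left out, averaged probe sets of a gene, a prior that follows intensity, a block for the replicate number, quantile-normalized signals, values with 250 added or floored at 250, and the filter dropped or moved to the 60th percentile. Deviations of arrays with the same replicate number correlated at -0.02, so no shared deviation by number was seen. With 2 arrays per group this cannot exclude that the numbers pair the arrays by design.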

Additional observations from a re-analysis of the deposited data

Results flagged for a closer look

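Probe sets that the annotation pairs with several genes stood outside the comparisons. Of the 5 that include a gene of these families, 3 passed the filter, and those 3 had both APPSw arrays above both controls, as did 22.2% of all kept probe sets. The Psme2 probe set, shared with Psme2b, had signals of 3120 and 3508 in APPSw mice, against 2431 and 2056 in controls, a log2 difference of 0.57 (SE 0.19). Psme2 encodes the partner of Psme1 in the interferon-induced activator. The probe set shared by Ube2j2 and Gm5801 differed by 0.42 (SE 0.19), and that shared by Ube2l3 and 4 other symbols by 0.24 (SE 0.17). Their adjusted p by limma was 0.599, 0.612 and 0.701.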

How the results depend on the processing

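In each of the 11 alternatives to the test, the count of probe sets past the adjusted threshold stayed at 0 over all probe sets, among proteasome genes and among ubiquitin enzymes, with a lowest adjusted p of 0.148 without control replicate 2. The proteasome median log2 difference (0.10) ran from -0.00098 to 0.18 with an array left out and from 0.064 to 0.10 under the other settings. The ubiquitin enzyme median (-0.029) ran from -0.086 to -0.0085 with an array left out and from -0.042 (filter at the 60th percentile) to -0.0033 (no filter) under the other settings planned, and was -0.061 over probe sets with no letter suffix, an alternative chosen after seeing the data. With the replicate block, whose numbers showed no shared deviation, the medians were 0.10 and -0.029, with 0 calls. Over all probe sets that setting gave 342 higher and 217 lower at an unadjusted p under 0.05 by limma. Of 34 named genes, 23 kept their sign in every setting run and 11 did not; the cause was not tested. Usp9x was 0.023 after quantile normalization. With an array left out, differences ran from -0.35 to 0.056 for Psma1, -0.21 to 0.15 for Psmb4, -0.29 to 0.13 for Psmb5, -0.061 to 0.41 for Psmb6, -0.14 to 0.26 for Psmb7, -0.10 to 0.23 for Psmd1, -0.92 to 0.047 for Psme3, -0.18 to 0.041 for Psme4, -0.20 to 0.11 for Ube2n, -0.16 to 0.48 for Ube4b and -0.077 to 0.067 for Usp9x. Psmd2 was 1.54 with a floor of 250 and 1.57 with 250 added.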
